A study of Mus musculus with 8 samples.

Results

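Fibroblast marker genes and Thy1 were read in 4T1 mammary tumors grown with or without CD95 in mice with or without an adaptive immune system. Matching Ensembl identifiers to mouse symbols placed all 10 genes of the list among the 25006 identifiers counted. They are Thy1, Pdgfra, Pdgfrb, Fap, Acta2, Pdpn, S100a4, Ly6a, Pi16 and Dpt. The list was chosen by the role of the genes and with their counts in all 4 groups in view, and Thy1 was selected on its being read in tumors of mice without T cells. Differences between groups in these genes are therefore given as descriptions with their standard errors. A gene is said to be called where its edgeR adjusted p-value over all genes tested was under 0.05, and no p-value is attached to a single member.

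4T1 is a metastatic mammary carcinoma line derived from a Balb/c mouse. RNA of tumors was sequenced in 8 libraries, 1 for each of 4 lines in each of 2 hosts. NSG wild-type tumors came from the parental 4T1 line and from a line carrying vCas9, and NSG knockout tumors from CD95/Fas CRISPR/Cas9 clones 54 and 69. The tumors in Balb/c mice, wild type and knockout, came from those same 4 lines. All tumors grew from cells placed in the fat pad for at most 20 days. NSG mice have no mature lymphocytes, NK cells included, but keep fibroblasts, vessels and myeloid cells, whereas Balb/c mice have a full immune system. NSG and Balb/c are also different strains, so strain and immune status cannot be told apart in any difference between hosts. Mouse age is not given in the labels. Both knockout lines are clones, which the labels do not say of the wild-type lines, so clonal origin and CD95 status cannot be told apart. Whether a library held 1 tumor or several is not stated, and the lines of a group stand in as its replicates, so that errors measure the spread between these samples. Libraries are named below by host and line.

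The highest library total was 2.26 times the lowest, and the 2 libraries of each group differed by more than sampling noise (chi-square per degree of freedom 18.4 to 117). Fas, the targeted gene, was at 33.9 and 22.6 CPM in NSG wild type, 29.5 and 12.9 CPM in NSG knockout, 51.6 and 46.9 CPM in Balb/c wild type, and 27.1 and 33.7 CPM in Balb/c knockout. CPM here stands for counts relative to a library total scaled to the usual fixed size and adjusted by the trimmed mean of M values (TMM). Fas was not called in either host, and the knockout status rests on the labels. All 10 tumor epithelial genes were read in every group, with a summed level of 749 to 4236 CPM per library.

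Fibroblasts build and remodel the collagen matrix of connective tissue, and those inside tumors are called cancer-associated fibroblasts. Pi16, Dpt and Ly6a mark resting, progenitor-like fibroblasts around vessels and in fascia, Pdgfra is the general receptor of the lineage, and Fap and Acta2 mark activated and contractile states. Pdgfrb and Acta2 are shared with pericytes and smooth muscle, the mural cells that wrap vessels. Several of these genes have other sources: Thy1 coats T cells and neurons as well as fibroblasts, Pdpn is made by lymphatic endothelium and some macrophages, and S100a4 by leukocytes and motile tumor cells. No gene of the list belongs to fibroblasts alone.

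Promoter windows were at hand for 6 of the 10 genes in the RefSeq table of GRCm38.p6, each running from 250 bases before to 50 bases after the annotated start. The windows of Acta2 (chr19:34255324-34255623, minus strand) and Dpt (chr1:164796413-164796712, plus strand) are shown because Acta2 was lower in the Balb/c tumors of wild-type and knockout lines alike, without overlap, whereas Dpt was so in the knockout clones and overlapped between hosts in wild-type lines. Capitals mark matches to any of the motifs searched on either strand, which were the TATA box TATAAA and its variant TATATAA, the AP-1 element TGANTCA, the TEAD element GGAATG and the CArG box of serum response factor, searched in its strict consensus form only.
Acta2: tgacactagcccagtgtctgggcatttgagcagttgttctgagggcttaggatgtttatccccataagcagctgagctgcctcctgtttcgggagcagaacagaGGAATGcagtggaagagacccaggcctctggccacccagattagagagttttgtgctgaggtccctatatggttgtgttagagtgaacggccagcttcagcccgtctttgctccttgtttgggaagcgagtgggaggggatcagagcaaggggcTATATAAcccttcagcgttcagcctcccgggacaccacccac
Dpt: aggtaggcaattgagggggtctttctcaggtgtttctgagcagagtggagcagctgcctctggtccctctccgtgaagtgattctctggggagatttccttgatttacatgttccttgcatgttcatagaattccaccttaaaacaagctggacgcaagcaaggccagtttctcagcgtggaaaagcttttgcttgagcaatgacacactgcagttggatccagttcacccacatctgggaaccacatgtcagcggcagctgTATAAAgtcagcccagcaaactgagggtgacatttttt
The Acta2 window held GGAATG 146 bases before the RefSeq start and TATATAA 8 bases past it, and the Dpt window held TATAAA 12 bases past its RefSeq start. The gene positions printed below come from another annotation, GENCODE M21, in which Acta2 and Dpt begin at other bases. These distances hold for the RefSeq starts only. In 32841 windows of the same length, TATATAA was found in 3.24%, TATAAA in 13.6%, GGAATG in 14.7%, TGANTCA in 7.81% and a strict CArG box in 1.63%. No strict CArG match or TGANTCA lay in the windows of Acta2, Dpt, Pi16, Pdgfra, Pdpn or S100a4, and S100a4 alone of the other 4 held TATAAA. The known CArG elements of the Acta2 promoter depart from the strict consensus and lie in the printed window, where this search does not count them.

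All 10 genes were well covered, from 209 counts for Fap in the Balb/c clone 69 library to 6222 for Ly6a in the NSG clone 54 library, and all 10 passed the filter on low counts. Levels between genes were compared per kilobase of exon (RPKM, from CPM and the union of annotated exons). The mean over the 8 libraries fell in the order S100a4 (320 RPKM), Ly6a (206), Dpt (130), Pdpn (74.4), Pi16 (40.4), Thy1 (40.0), Acta2 (28.4), Pdgfra (15.5), Pdgfrb (10.1) and Fap (5.58). Each gene's range over libraries overlapped that of its neighbors in this order. Between the highest and lowest library, CPM spanned from 1.97-fold for Pdpn to 8.15-fold for Pdgfra.

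**Figure D1:**
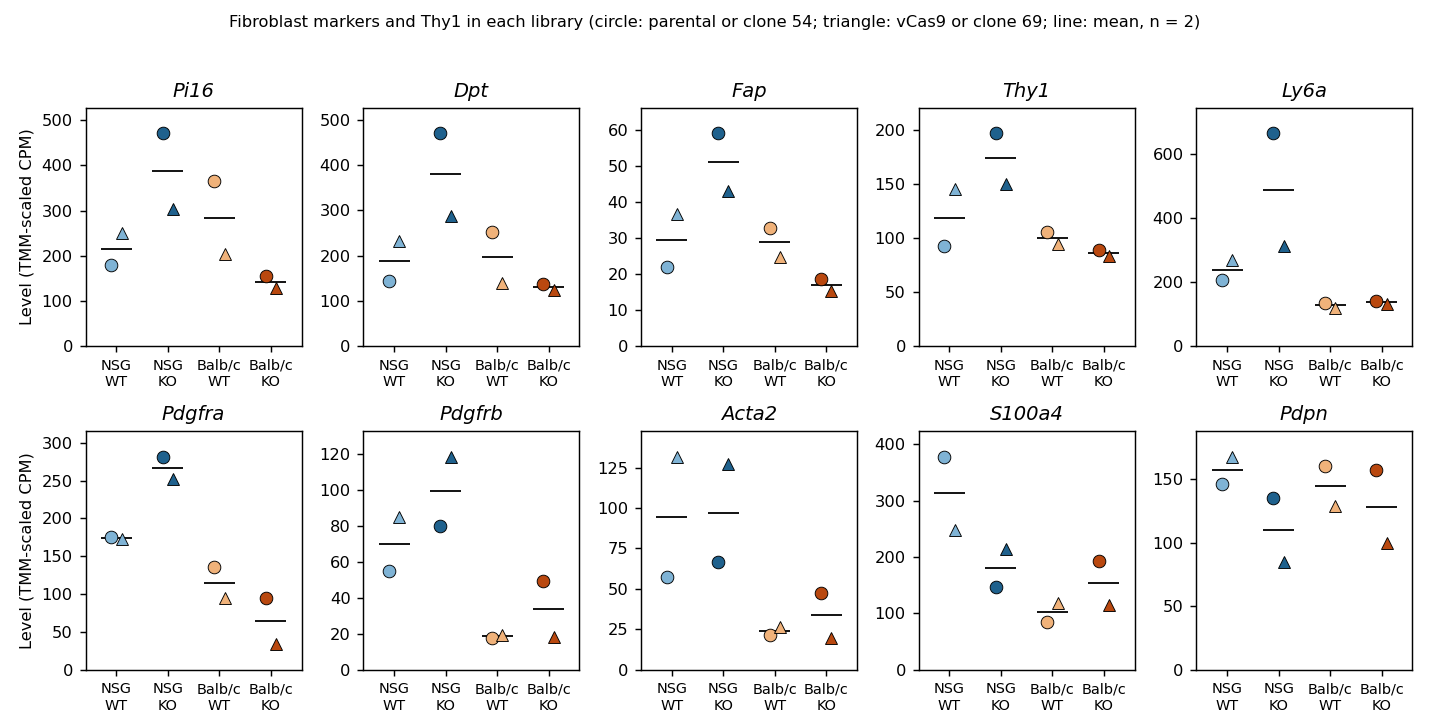
Level of each gene in the 8 libraries on the y axis (TMM-scaled CPM, linear, from 0) by host and CD95 status on the x axis. Circles are the parental line or clone 54, triangles the vCas9 line or clone 69, and lines the group mean of 2 libraries. Pi16, Dpt, Fap, Thy1, Ly6a and Pdgfra have their highest library in NSG clone 54, at 471 CPM for Pi16.

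The resting-fibroblast genes are taken first. Pi16 (ENSMUSG00000024011, chr17:29317680-29330593, plus strand) encodes a secreted peptidase inhibitor. It was at 179 and 249 CPM in the NSG tumors of the parental and vCas9 lines, 471 and 304 CPM in those of clones 54 and 69, 365 and 203 CPM in Balb/c parental and vCas9 tumors, and 156 and 129 CPM in Balb/c clone 54 and 69 tumors. Knockout libraries thus lay above wild type in NSG and below it in Balb/c, with no overlap in either host. The host difference (Balb/c minus NSG, log2) was 0.41 (SE 0.34) in wild-type tumors and -1.44 (SE 0.34) in knockout tumors. Pi16 shares 222 exon bases with an antisense gene, which makes its counts uncertain where strand was not used.

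Dpt (ENSMUSG00000026574, chr1:164796644-164824266, plus strand) encodes dermatopontin, a small matrix protein that binds decorin. Its CPM values were 145 and 233 in NSG parental and vCas9 tumors, 471 and 289 in NSG clones 54 and 69, 253 and 141 in Balb/c parental and vCas9 tumors, and 139 and 123 in Balb/c clones 54 and 69. The order of the groups was that of Pi16, although the lowest Balb/c wild-type library stood only just above the knockout ones. Its host difference was 0.06 (SE 0.36) in wild-type and -1.53 (SE 0.37) in knockout tumors on the log2 scale.

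Ly6a (ENSMUSG00000075602, chr15:74994877-74998031, minus strand) encodes Sca-1, a GPI-anchored surface protein of progenitor cells, endothelium and activated lymphocytes that interferon induces. Its level was 207 and 270 CPM in NSG parental and vCas9 tumors, 666 and 313 CPM in NSG clones 54 and 69, 136 and 120 CPM in Balb/c parental and vCas9 tumors, and 143 and 131 CPM in Balb/c clones 54 and 69. All 4 Balb/c libraries lay below all 4 NSG libraries, and clone 54 in NSG stood apart from the rest at 2.13 times clone 69. The log2 host difference was -0.90 (SE 0.33) in wild-type and -1.83 (SE 0.34) in knockout tumors. Interferon response genes, summed, moved the other way, from 398 to 835 CPM in NSG libraries and from 1568 to 2299 CPM in Balb/c libraries, and their part in Ly6a was not tested. Ly6a has close relatives whose reads it can share, which makes its values uncertain.

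Thy1 (ENSMUSG00000032011, chr9:44043384-44048579, plus strand) encodes another GPI-anchored glycoprotein. It was at 93.0 and 145 CPM in NSG parental and vCas9 tumors, 197 and 150 CPM in NSG clones 54 and 69, 105 and 94.9 CPM in Balb/c parental and vCas9 tumors, and 88.7 and 83.4 CPM in Balb/c clones 54 and 69. In the vCas9, clone 54 and clone 69 lines Thy1 was higher in the NSG than in the Balb/c tumor, and in the parental line it was lower. Thy1 was chosen with its NSG values in view, so these differences are a description only. The log2 host difference was -0.25 (SE 0.24) in wild-type and -1.01 (SE 0.24) in knockout tumors.

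The summed level of T cell genes was higher in the Balb/c tumor of all 4 lines. Thy1 was lower in the Balb/c tumor of 3 of the 4 lines and higher in that of the parental line. The part of T cells in Thy1 was not tested. The summed level of 11 T cell genes (Cd3d, Cd3e, Cd3g, Cd247, Cd4, Cd8a, Cd8b1, Lck, Cd2, Cd5 and Cd28) was 11.7, 12.2, 5.78 and 8.15 CPM in NSG parental, vCas9, clone 54 and clone 69 tumors. In the corresponding Balb/c tumors it was 559, 435, 501 and 498 CPM. Thy1 amounted to 7.95 to 34.1 times this sum in NSG libraries and to 0.168 to 0.218 times it in Balb/c libraries. Cd3g, a subunit of the T cell receptor complex, had 1 count in the NSG parental library and 0 in the other 3 NSG libraries, against 500 to 1112 counts in Balb/c libraries. All 11 genes rose with the Balb/c host in wild-type tumors and all 11 in knockout tumors, against 15.3% and 15.7% of all genes tested that rose. NK cell genes, which can accompany Thy1 on lymphocytes, summed to 1.79 to 9.52 CPM in NSG and 176 to 341 CPM in Balb/c tumors. Neural and Schwann cell genes, another possible source, summed to 39.2 to 79.6 CPM in NSG and 67.4 to 97.5 CPM in Balb/c tumors. Mbp, which was higher in Balb/c tumors of both genotypes, made up most of this sum. It averaged 31.7 and 38.6 CPM in NSG and 62.7 and 79.7 CPM in Balb/c wild-type and knockout tumors. Of 7 genes of this list tested, host log2 fold changes were negative for 5 in wild-type and 6 in knockout tumors. They were positive for 2 and 1. The part of neural and Schwann cells in Thy1 was not tested.

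**Figure D2:**
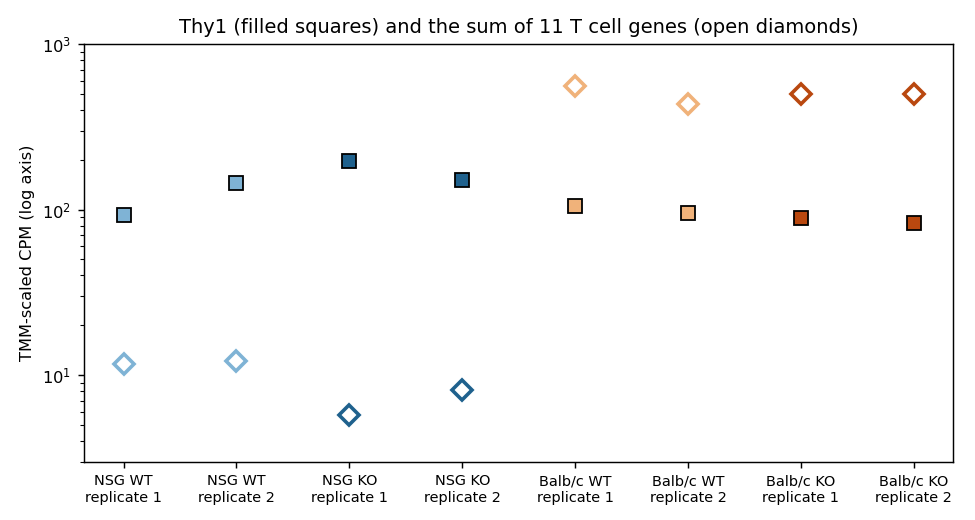
Thy1 (filled squares) and the sum of 11 T cell genes (open diamonds) in each library, in TMM-scaled CPM on a log axis. In the 4 NSG libraries Thy1 is at 93.0 CPM or higher while the T cell sum is at 12.2 CPM or lower, and in the 4 Balb/c libraries the T cell sum is the higher of the pair.

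The receptors of platelet-derived growth factor (PDGF) come next. Pdgfra (ENSMUSG00000029231, chr5:75152292-75198215, plus strand) encodes the receptor that marks most fibroblasts. Its CPM values were 175 and 173 in NSG parental and vCas9 tumors, 282 and 252 in NSG clones 54 and 69, 135 and 94.7 in Balb/c parental and vCas9 tumors, and 94.7 and 34.6 in Balb/c clones 54 and 69. All Balb/c libraries lay below all NSG libraries, and the host difference was -0.60 (SE 0.41) in wild-type and -2.04 (SE 0.42) in knockout tumors on the log2 scale. On leaving out 1 library, the wild-type value ran from -0.88 to -0.29. Pdgfra shares 456 exon bases with an antisense gene, and the strand setting of the counts is not given in the sources used here.

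Pdgfrb (ENSMUSG00000024620, chr18:61045150-61085061, plus strand) encodes the receptor by which pericytes are recruited to vessels. It was at 54.8 and 85.2 CPM in NSG parental and vCas9 tumors, 80.0 and 119 CPM in NSG clones 54 and 69, 17.8 and 19.2 CPM in Balb/c parental and vCas9 tumors, and 49.3 and 18.2 CPM in Balb/c clones 54 and 69. The 2 hosts did not overlap, and Balb/c clone 54 stood apart from the other 3 Balb/c libraries. Its log2 host difference was -1.92 (SE 0.45) in wild-type and -1.55 (SE 0.44) in knockout tumors.

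Of the PDGF ligands, Pdgfa was lower in Balb/c tumors of wild-type lines (log2 fold change -1.43, SE 0.38, edgeR adjusted p = 0.0258) and of knockout clones (-1.42, SE 0.38, adjusted p = 0.0247). Pdgfb, the ligand of the pericyte receptor, fell in wild-type tumors by 1.30 (SE 0.28, edgeR adjusted p = 0.0144) and its value in knockout tumors was -0.63 (SE 0.28, adjusted p = 0.122). Over the list of 7 ligands and partners, 4 genes fell and none rose in wild-type tumors, and 2 fell and none rose in knockout tumors, beside 16.2% and 15.4% of all genes tested that fell (31.5% and 31.1% called in either direction). The others called were Sparc, a matrix protein that binds PDGF, in both, and the co-receptor Nrp1 in wild-type tumors.

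Among the genes of activated and contractile cells, Fap (ENSMUSG00000000392, chr2:62500943-62574075, minus strand) encodes a membrane protease of remodeling stroma and had the lowest mean RPKM of the 10 over the 8 libraries. It was at 22.1 and 36.8 CPM in NSG parental and vCas9 tumors, 59.1 and 43.2 CPM in NSG clones 54 and 69, 32.8 and 24.7 CPM in Balb/c parental and vCas9 tumors, and 18.8 and 15.2 CPM in Balb/c clones 54 and 69. Like Pi16 and Dpt, it was higher in knockout than wild-type libraries in NSG and lower in Balb/c without overlap. Its log2 host difference was -0.03 (SE 0.29) in wild-type tumors, where it turned positive under several settings given in the closing section, and -1.58 (SE 0.30) in knockout tumors.

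Acta2 (ENSMUSG00000035783, chr19:34241090-34255590, minus strand) encodes smooth muscle alpha-actin, the contractile filament of myofibroblasts and mural cells. Its CPM values were 57.2 and 132 in NSG parental and vCas9 tumors, 66.4 and 127 in NSG clones 54 and 69, 21.7 and 26.3 in Balb/c parental and vCas9 tumors, and 47.6 and 19.6 in Balb/c clones 54 and 69. The hosts did not overlap, and the library order was close to that of Pdgfrb, with clone 54 highest among the Balb/c tumors. The log2 host difference was -1.97 (SE 0.54) in wild-type and -1.53 (SE 0.53) in knockout tumors.

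S100a4 (ENSMUSG00000001020, chr3:90603771-90606045, plus strand), also known as fibroblast-specific protein, encodes a calcium-binding protein that leukocytes express as well. It was at 378 and 247 CPM in NSG parental and vCas9 tumors, 146 and 214 CPM in NSG clones 54 and 69, 85.4 and 119 CPM in Balb/c parental and vCas9 tumors, and 192 and 115 CPM in Balb/c clones 54 and 69. Its highest libraries were NSG wild type, and the hosts did not overlap in wild-type tumors but did in knockout tumors. The log2 host difference was -1.62 (SE 0.34) in wild-type and -0.23 (SE 0.34) in knockout tumors. It shares 302 exon bases with a second annotated gene, which makes its counts uncertain.

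Pdpn (ENSMUSG00000028583, chr4:143267431-143299564, minus strand) encodes podoplanin, a mucin-like surface protein. It was at 147 and 168 CPM in NSG parental and vCas9 tumors, 136 and 85.0 CPM in NSG clones 54 and 69, 161 and 129 CPM in Balb/c parental and vCas9 tumors, and 157 and 99.9 CPM in Balb/c clones 54 and 69. The hosts overlapped in either genotype, with log2 differences of -0.12 (SE 0.29) in wild-type and 0.22 (SE 0.29) in knockout tumors. The lymphatic endothelial genes, summed, were at 99.6 to 230 CPM in NSG and 19.6 to 55.6 CPM in Balb/c libraries. Most of this sum was Lyve1, which averaged 186 and 91.1 CPM in NSG and 33.0 and 16.1 CPM in Balb/c wild-type and knockout tumors. Of the 5 genes of that list tested, 3 had negative and 2 positive host values in wild-type tumors. In knockout tumors 4 were negative and 1 positive. Macrophage genes were at 3236 to 6014 CPM in NSG and 3136 to 15983 CPM in Balb/c libraries. The part of these cells in Pdpn was not tested.

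Set side by side, the values show what separated the tumors of each line in the 2 hosts. In wild-type tumors, 3 of the 10 genes were called, Pdgfrb, Acta2 and S100a4, all lower in Balb/c, against 31.5% of all genes tested (15.3% higher, 16.2% lower). The median log2 fold change of the 10 was -0.42, beside -0.08 for all genes. Libraries of the 2 hosts were apart with Balb/c lower for 5 of the 10 genes, as for 41% of all genes, and with Balb/c higher for none, as for 35.4%. In bulk tumor RNA, fewer fibroblasts or mural cells and less RNA per cell cannot be told apart. With the line as a replicate block, none of the 3 was called, and leaving out 1 library of either wild-type group left at most 1 of them called: 0 without the NSG parental, Balb/c parental or Balb/c vCas9 library, and S100a4 without the NSG vCas9 library.

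In knockout tumors, 7 of the 10 genes were called, all lower in Balb/c, against 31.1% of all genes tested (15.7% higher, 15.4% lower). These were Thy1, Pdgfra, Pdgfrb, Fap, Ly6a, Pi16 and Dpt, with log2 fold changes from -1.01 to -2.04. The median of the 10 was -1.53, beside 0.02 for all genes, and libraries of the hosts were apart with Balb/c lower for 8 of the 10, as for 31.9% of all genes, and with Balb/c higher for none, as for 32.4%. Macrophage genes went the other way: 8 of 10 rose and none fell with the Balb/c host in knockout tumors. Their sum was 3236 to 3506 CPM in NSG and 6937 to 15983 CPM in Balb/c knockout libraries. In wild-type tumors 1 of the 10 rose and 3 fell, with sums of 5786 to 6014 CPM in NSG and 3136 to 3429 CPM in Balb/c. The part of macrophages in the fibroblast values was not tested. Under the same block 4 remained called, Thy1, Pdgfra, Fap and Ly6a. Leaving out the NSG clone 54 library kept the calls of Pdgfra, Pdgfrb, Fap and Ly6a, and leaving out the Balb/c clone 69 library those of Thy1, Pdgfra, Fap and Ly6a. Here and in wild-type tumors, each such fit left 1 library in a group, and the spread came from the other groups.

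Over all 4 lines, Balb/c libraries were wholly below NSG libraries for Pdgfra, Pdgfrb, Acta2 and Ly6a, 4 of the 10 genes, as for 17.5% of all genes. Line by line, Pdgfra was lower in the Balb/c tumor by 1.29-fold in the parental line, 1.82-fold in vCas9, 2.97-fold in clone 54 and 7.30-fold in clone 69. Pi16, in contrast, was 2.05-fold higher in the Balb/c tumor of the parental line and 1.23-fold, 3.02-fold and 2.35-fold lower in vCas9, clone 54 and clone 69. Dpt, Fap and Thy1 were likewise higher in Balb/c in the parental line only, by 0.80, 0.57 and 0.18 on the log2 scale. For Acta2 the smallest loss was in clone 54, at 1.40-fold, and the largest in clone 69, at 6.50-fold.

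**Figure D3:**
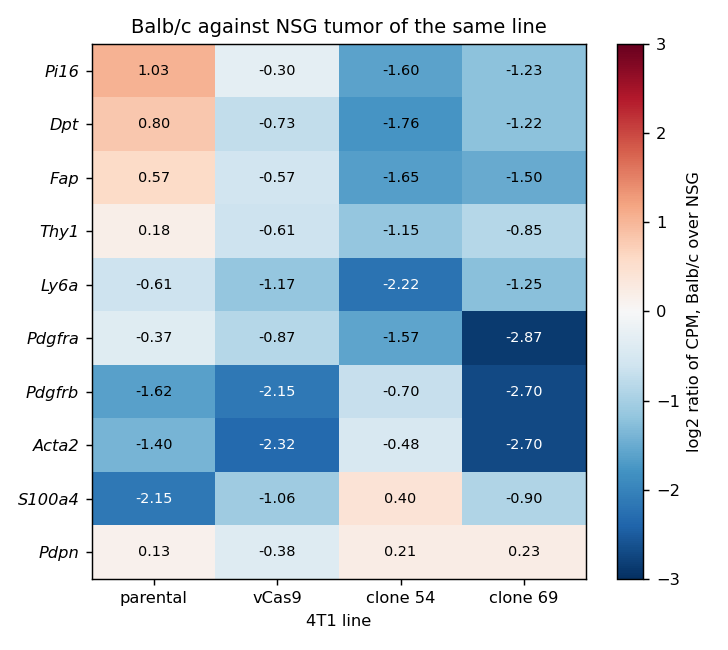
Log2 ratio of CPM between the Balb/c and the NSG tumor of each 4T1 line (columns) for each gene (rows), with blue for lower and red for higher in Balb/c. The parental column is positive for Pi16 (1.03), Dpt (0.80), Fap (0.57), Thy1 (0.18) and Pdpn (0.13), and clone 69 holds the most negative values, -2.87 for Pdgfra and -2.70 for Pdgfrb and Acta2.

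The difference between knockout and wild-type tumors, in which clonal origin and CD95 status cannot be told apart, was described within each host. In NSG tumors 8 of the 10 genes had a positive log2 fold change, from 0.04 (SE 0.51) for Acta2 to 1.04 (SE 0.33) for Ly6a, and Pdpn (-0.51, SE 0.29) and S100a4 (-0.80, SE 0.34) had negative ones. On leaving out 1 library, Ly6a ran from 0.39 to 1.48, Pdpn from -0.89 to -0.22 and S100a4 from -1.10 to -0.46. Knockout libraries were wholly above wild type for 6 genes, as for 26.7% of all genes, and wholly below it for 2, as for 25.8%. None of the 10 was called by edgeR, DESeq2 or limma-voom, beside 0.0131% of all genes called by edgeR and 2.27% by DESeq2 (of the genes it gave an adjusted p-value). An unadjusted edgeR p-value under 0.05 was found for 5 of the 10 and for 14% of all genes. The values for Pi16, Dpt and Fap were 0.86 (SE 0.34), 1.01 (SE 0.36) and 0.80 (SE 0.29).

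In Balb/c tumors the signs were divided. Pi16 (-0.99, SE 0.34), Pdgfra (-0.83, SE 0.41), Fap (-0.75, SE 0.29), Dpt (-0.59, SE 0.36), Thy1 (-0.22, SE 0.24) and Pdpn (-0.17, SE 0.29) had negative log2 fold changes. Pdgfrb (0.87, SE 0.44), S100a4 (0.59, SE 0.34), Acta2 (0.49, SE 0.52) and Ly6a (0.10, SE 0.33) had positive ones. On leaving out 1 library, Pi16 ran from -1.44 to -0.51, Pdgfra from -1.84 to -0.27 and Dpt from -1.03 to -0.099. Thy1 then ran from -0.37 to -0.14 and S100a4 from 0.071 to 0.92. Knockout libraries were wholly below wild type for 4 genes, as for 29.3% of all genes, and wholly above it for none, as for 32.9%. None of the 10 was called by edgeR or limma-voom, beside 0.176% of all genes called by edgeR (0.0457% higher, 0.131% lower). DESeq2 called Pi16, and 15% of all genes. Unadjusted edgeR p-values were under 0.05 for 2 of the 10 and for 30.9% of all genes.

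The positive values of Pdgfrb and Acta2 rested on clone 54. Without the Balb/c clone 54 library their log2 fold changes became -0.13 and -0.40, and without the Balb/c clone 69 library that of Pdgfrb became 1.42. Each of these fits left 1 knockout library in Balb/c, so only effect sizes are given. The 2 Balb/c knockout libraries differed 2.74-fold in Pdgfra, 2.70-fold in Pdgfrb and 2.42-fold in Acta2, clone 54 being higher, and 1.06-fold to 1.23-fold in Thy1, Ly6a, Dpt, Pi16 and Fap. The same libraries differed in their other cells: tumor epithelial genes summed to 749 CPM in clone 54 and 4236 CPM in clone 69, and macrophage genes to 15983 and 6937 CPM. The part of these cells in the stromal values was not tested.

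**Figure D4:**
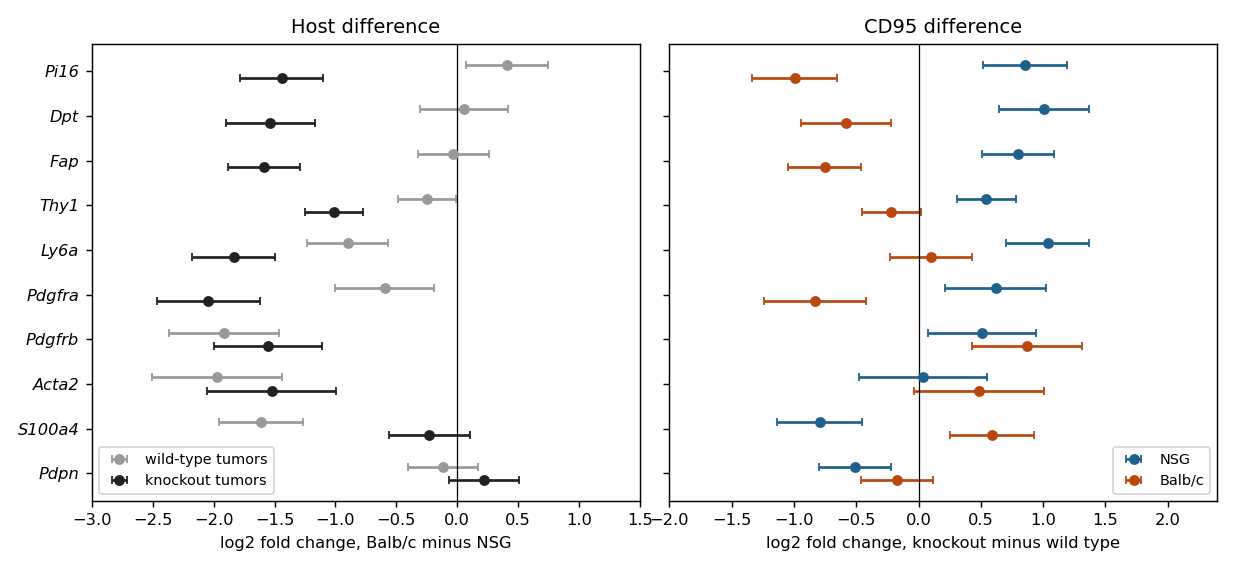
Log2 fold change (x axis) of each gene with its standard error, between Balb/c and NSG tumors on the left (gray, wild type; black, knockout) and between knockout and wild-type tumors on the right (blue, NSG; orange, Balb/c). Every black point but those of S100a4 and Pdpn lies at -1.01 or lower, and on the right Pi16, Dpt and Fap lie above 0 in NSG and below 0 in Balb/c.

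Whether the CD95 difference itself differed between hosts was described as the difference of the 2 log2 fold changes (Balb/c minus NSG). It was -1.85 (SE 0.48) for Pi16, -1.59 (SE 0.51) for Dpt, -1.55 (SE 0.41) for Fap and -1.45 (SE 0.58) for Pdgfra, and 1.39 (SE 0.48) for S100a4. On leaving out 1 library, Pdgfra ran from -2.47 to -0.89 and S100a4 from 0.85 to 1.72. None of the 10 was called by edgeR or limma-voom, as 0% of all genes by edgeR, and 5 of the 10 and 22.5% of all genes had an unadjusted edgeR p-value under 0.05. DESeq2 called Fap, Pi16 and Dpt, and 6.92% of all genes. Knockout libraries wholly above wild type in NSG and wholly below it in Balb/c were found for Thy1, Fap, Pi16 and Dpt, as for 7.14% of all genes, and the converse for none of the 10, as for 9.15%.

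Genes of other lists give the surroundings of these values. Of 29 other fibroblast genes tested, 3 fell and none rose with the Balb/c host in wild-type tumors (median log2 fold change -0.76), and 22 fell and none rose in knockout tumors (median -1.78). The share of this list called is to be read against the 31.5% and 31.1% of all genes. Col3a1, a fibrillar collagen and the most abundant of them, had a log2 value of -1.08 (SE 0.51, edgeR adjusted p = 0.14) in wild-type tumors and fell by 2.17 (SE 0.53, adjusted p = 0.0182) in knockout tumors. Fbln1, a basement membrane glycoprotein, fell by 1.65 (SE 0.33, edgeR adjusted p = 0.011) in wild-type and had a log2 value of -3.59 (SE 0.36, adjusted p = 0.000624) in knockout tumors. Tnxb, a tenascin of loose connective tissue, was at 370 and 404 CPM on average in NSG and Balb/c wild-type tumors and at 779 and 86.4 CPM in knockout tumors, with a log2 difference of -3.17 (SE 0.42, edgeR adjusted p = 0.00166) in the latter. Sema3c, which marks Pi16-bearing fibroblasts, fell by 2.64 (SE 0.44, edgeR adjusted p = 0.0039) in knockout tumors. Its value in wild-type tumors was -0.33 (SE 0.41, edgeR adjusted p = 0.56). In wild-type tumors Pcolce, an enhancer of procollagen processing, fell by 1.83 (SE 0.39, edgeR adjusted p = 0.0127) and Fbln2, a matrix fibulin, had a log2 value of -1.66 (SE 0.45, adjusted p = 0.0286).

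Of 16 contractile and pericyte genes, 7 fell and none rose with the Balb/c host in wild-type tumors (median -1.47), and 6 fell and none rose in knockout tumors (median -1.06), beside 16.2% and 15.4% of all genes tested that fell. Cspg4, the NG2 proteoglycan of pericytes, had log2 fold changes of -1.91 (SE 0.55, edgeR adjusted p = 0.0336) and -2.07 (SE 0.54, adjusted p = 0.0237). Kcnj8, a potassium channel subunit of pericytes, had values of -1.51 (SE 0.25, edgeR adjusted p = 0.00622) and -2.66 (SE 0.26, adjusted p = 0.000544), and Cald1, which binds actin, of -1.62 (SE 0.26, adjusted p = 0.00572) and -2.23 (SE 0.27, adjusted p = 0.0012). Mcam and Myl9, a mural adhesion molecule and a myosin light chain, fell in wild-type tumors, with values of -1.84 (SE 0.50, edgeR adjusted p = 0.0278) and -1.90 (SE 0.51, adjusted p = 0.0272). Their values in knockout tumors were -0.99 (SE 0.48, edgeR adjusted p = 0.151) and -1.03 (SE 0.48, adjusted p = 0.144). Rgs5, a pericyte regulator of G protein signaling, had values of -1.68 (SE 0.57, edgeR adjusted p = 0.0555) and 0.26 (SE 0.55, adjusted p = 0.753). No gene of either list was called for CD95 status in NSG or Balb/c tumors by edgeR.

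**Figure D5:**
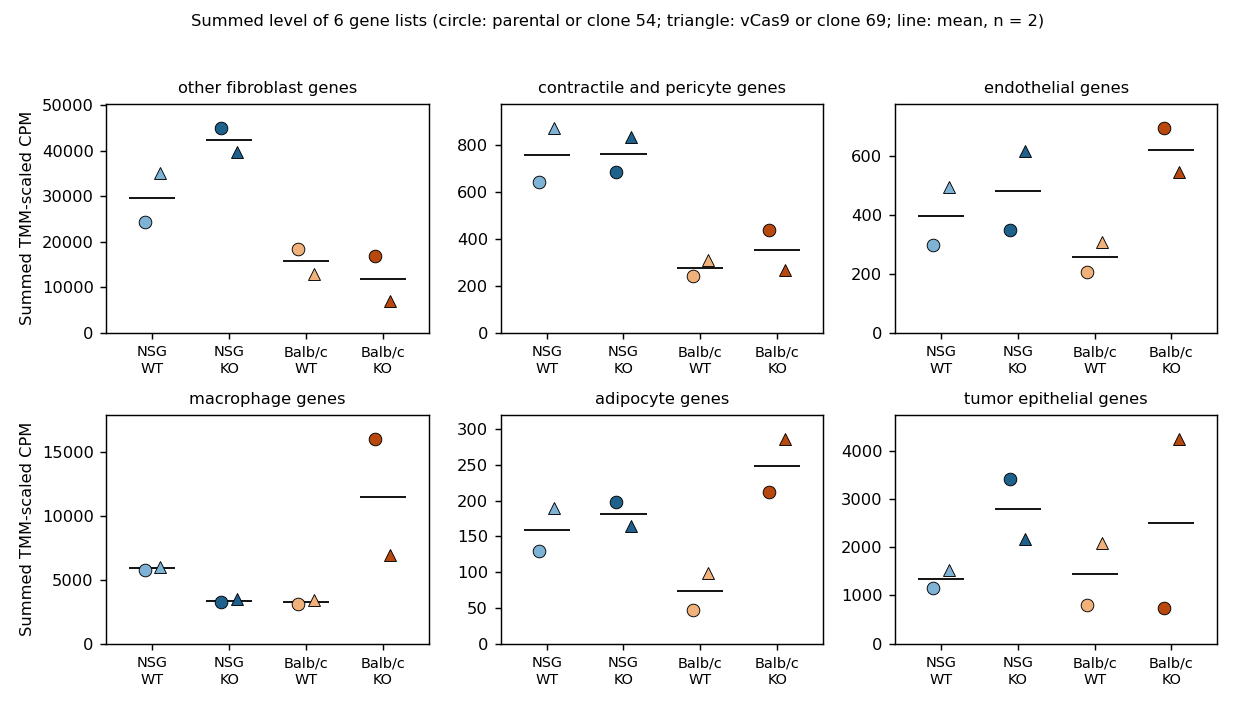
Summed level of 6 gene lists in each library on the y axis (TMM-scaled CPM, linear, from 0) by group on the x axis, with circles for the parental line or clone 54, triangles for the vCas9 line or clone 69 and lines for the mean of 2. The fibroblast and contractile sums are lower in all 4 Balb/c libraries, and the endothelial, macrophage and adipocyte sums have their highest group mean in Balb/c knockout tumors.

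The remaining lists moved as follows. Endothelial genes summed to 297 to 614 CPM in NSG, 206 to 306 CPM in Balb/c wild-type and 544 to 692 CPM in Balb/c knockout tumors, with 3 of 10 genes falling with the Balb/c host in wild-type tumors and 1 rising in knockout tumors, beside 31.5% and 31.1% of all genes called in either direction. Adipocyte genes of the fat pad summed to 130 to 198 CPM in NSG, 47.3 to 98.8 CPM in Balb/c wild-type and 212 to 286 CPM in Balb/c knockout tumors. In knockout tumors 6 of 9 adipocyte genes fell and 1 rose with the host, beside 15.4% and 15.7% of all genes, and Fabp4, which macrophages and endothelium also express, made up most of the sum (231 CPM on average in Balb/c knockout tumors). Cfd, the adipocyte protease adipsin, fell with the Balb/c host, with log2 fold changes of -2.43 (SE 0.44, edgeR adjusted p = 0.00793) in wild-type and -4.53 (SE 0.47, adjusted p = 0.000721) in knockout tumors, and Plin4, a lipid droplet protein, had a value of -3.62 (SE 0.58, adjusted p = 0.00344) in knockout tumors. In wild-type tumors the value of Plin4 was -1.42 (SE 0.54, edgeR adjusted p = 0.0782). Inflammatory fibroblast genes numbered 3 of 12 falling in wild-type and 4 of 12 in knockout tumors, with none rising, beside the same 16.2% and 15.4% of all genes that fell and 31.5% and 31.1% called in either direction. Has2, which makes hyaluronan and is named here with its values known, was the 1 gene of that list called for CD95 status in Balb/c, where it was lower in knockout tumors. Whether the adipose, endothelial or macrophage content of the tumors had a part in the fibroblast values was not tested. Neutrophil genes summed to 1362 to 3137 CPM in NSG and 533 to 7683 CPM in Balb/c libraries, skeletal muscle genes to at most 45.0 CPM in any library, and other Ly6 family genes to 256 to 657 CPM.

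Likeness between genes was described by the Pearson correlation of log2 CPM over the 8 libraries, which share host and line and fall into 2 host groups, so that no p-value is given. The genes most like Thy1 among 7059 protein-coding genes that varied were C1qtnf1 (r = 0.989), Nox4 (0.972), Olfml1 (0.971), Tmtc1 (0.971) and Hpgd (0.969). C1qtnf1, a secreted C1q-like protein, was at 54.6 CPM in NSG clone 54 and at 13.3 CPM in Balb/c clone 69, its highest and lowest libraries, which were also those of Thy1. Those most like Pdgfra were Dclk1 (0.988), Epdr1 (0.985), Adgra2 (0.984), Nsg1 (0.981) and Tbx15 (0.981). Those most like Acta2 were Igfbp3 (0.990), Actg2 (0.984), Tpm2 (0.980), Tagln (0.979) and Cspg4 (0.977), of which the last 4 belong to the contractile and pericyte list. Within the 10 genes, Thy1 followed Fap (0.96), Dpt (0.94) and Ly6a (0.93), Acta2 followed Pdgfrb (0.97), and Pdpn had no value above 0.14 with any other member.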

How the data were processed

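RNA sequencing counts of 8 tumor libraries were used. The authors deposited raw counts per Ensembl gene, 1 library per file. Per the submitters' processing notes, cutadapt 1.13, STAR, HTSeq 0.6.1p1 and DESeq2 were used with the builds mm10 and hg19, and which served which step, the annotation and the strand setting are not given in the sources used here. Positions and exon lengths came from GENCODE M21 (GRCm38). The fit used edgeR 4.0.16 under R 4.3.3 (TMM, filterByExpr, quasi-likelihood tests, Benjamini-Hochberg adjustment over 15310 genes, threshold 0.05), with all 8 libraries in a fit of 4 group means. Standard errors were derived from the F statistic. Log2 CPM used a prior count of 2. The members, the 16 gene lists and the tests were chosen with earlier results of these data known. Genes named are the 10 members, Fas, the most abundant genes of each list (up to 3), the fibroblast, contractile and PDGF genes called with the largest changes (up to 3 per direction), and the 5 genes most like Thy1, Pdgfra and Acta2; not all are printed. Cd3g and Has2 were added with their values known. Trac, Trbc1 and Trbc2 were not analysed here. Library totals were 8.68 to 19.7 M counts. The procedure was tested on simulated counts. Alternatives were RLE or total-count scaling, no filter, DESeq2 1.42.0, limma-voom (limma 3.58.1), only the 4 libraries compared, leaving out each library, and the line as replicate block. That block rests on the line names in the titles, since each line grew in both hosts; across genes, the difference between paired lines in NSG had r = 0.087 (wild-type lines) and r = -0.35 (clones) with that in Balb/c.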

Additional observations from a re-analysis of the deposited data

Results flagged for a closer look

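The knockout libraries lay wholly above the wild-type libraries in NSG and wholly below them in Balb/c for 4 of the 10 genes, a pattern met by 7.14% of all genes tested (the converse by 9.15%). The difference of the log2 fold changes (Balb/c minus NSG) was -0.76 (SE 0.34) for Thy1, -1.55 (SE 0.41) for Fap, -1.85 (SE 0.48) for Pi16 and -1.59 (SE 0.51) for Dpt. That of Thy1 ran from -1.11 to -0.47 on leaving out 1 library. None of the 4 differences was called by edgeR over the 15310 genes that passed the filter. DESeq2 called those of Fap, Pi16 and Dpt among 966 genes (6.92%), and edgeR without the filter those of Fap and Pi16 among 674 genes. In Balb/c the margin for Dpt was narrow, at 139 CPM in the higher knockout library and 141 CPM in the lower wild-type library. For Thy1 the margins were narrow in both hosts, at 145 CPM in the higher wild-type and 150 CPM in the lower knockout library in NSG, and at 88.7 and 94.9 CPM in the higher knockout and lower wild-type library in Balb/c.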

How the results depend on the processing

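Of 740 values of the 10 genes under alternatives, 664 kept their direction and their side of the threshold, 27 lost a call, 19 gained one and 30 changed sign, 24 of these on leaving out 1 library. In wild-type tumors the host difference of Fap became 0.060 with RLE size factors, 0.040 without a filter on low counts, 0.049 with DESeq2, 0.0032 with limma-voom and 0.036 with only the 4 libraries compared, and that of Dpt became -0.10 with total-count scaling; the cause was not tested. Total-count scaling moved the median of all genes from -0.08 to -0.24 (wild type) and from 0.02 to -0.17 (knockout), and the share of higher calls from 48.6% to 36.5% and from 50.5% to 37.3%. With the line as replicate block the host comparison called 2073 genes and 0 members in wild-type tumors and 2878 genes and 4 members in knockout tumors, and it changed no other count of members. A crossed pairing of the clones, chosen after seeing the data, called 5436 genes and 8 members there, and 307 genes for the difference between hosts. No paired analysis was possible because the lines differ between genotypes for the CD95 comparison within a host. With only the 4 libraries compared, 2450 genes were called for the host in knockout tumors. For CD95 status in NSG, 133 genes were called without a filter, 336 with DESeq2, 1 with limma-voom and 1 with only 4 libraries. In Balb/c these were 94 with RLE size factors, 1774 without a filter (1 member), 2162 with DESeq2 (1 member) and 0 with only 4 libraries. The difference between hosts called 674 genes without a filter (2 members) and 966 with DESeq2 (3 members).

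Leaving out each library gave 858 to 6361 genes and 0 to 4 members for the host in wild-type tumors, and 2461 to 4640 genes and 4 to 8 members in knockout tumors. It gave 0 to 1 genes for CD95 status in NSG, 0 to 3886 genes and 0 to 1 members in Balb/c (3886 without clone 69), and 0 to 2370 genes and 0 to 1 members for the difference between hosts. Each of these fits left 1 library in a group, and the spread came from the other groups. The following values changed sign when 1 library was left out. For the host in wild-type tumors, log2 fold changes ran in Thy1 from -0.54 to 0.093, in Fap from -0.36 to 0.37, in Pdpn from -0.29 to 0.10, in Pi16 from -0.082 to 0.84, in Dpt from -0.43 to 0.49. For the host in knockout tumors, log2 fold changes ran in Pdpn from -0.17 to 0.60, in S100a4 from -0.67 to 0.10. For CD95 status in NSG, log2 fold changes ran in Acta2 from -0.51 to 0.76. For CD95 status in Balb/c, log2 fold changes ran in Pdgfrb from -0.13 to 1.42, in Acta2 from -0.40 to 0.99, in Pdpn from -0.64 to 0.13, in Ly6a from -0.065 to 0.20. For the difference between hosts, log2 fold changes ran in Pdgfrb from -0.64 to 0.92, in Acta2 from -0.44 to 1.004, in Pdpn from -0.14 to 0.73. With its sign kept, the host difference of Acta2 ran from -2.46 to -1.26 in wild-type and from -2.33 to -0.98 in knockout tumors. In knockout tumors that of Pdgfrb ran from -2.47 to -1.01 and that of Ly6a from -2.28 to -1.19.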
